A study of Mus musculus with 4 samples.

Results

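The replication-dependent histone genes encode the linker histone H1 and the core histones H2A, H2B, H3 and H4, which package newly made DNA. Members were all genes whose symbol starts with Hist1h, Hist2h, Hist3h or Hist4h and that had at least 20 unique molecular identifiers (UMIs, each standing for 1 captured mRNA molecule), summed over barcodes of at least 1500 UMIs in all libraries. This gave 48 of 67 such genes, among 32285 genes in the files: 6 linker genes and 42 core genes (13 H2A, 12 H2B, 8 H3 and 9 H4). Just inside the minimum stood Hist1h2bf with 20 UMIs, and just outside it Hist1h3i with 18 and Hist1h2ai with 13. Mouse tumours from C57Bl6 mice, 6 to 8 weeks old, had been treated with enzyme nanocapsules or left as controls, and their cells were profiled by single-cell RNA sequencing. There were 2 Nanocapsule treated libraries and 2 Control libraries. The dose, the time after treatment and the tumour line are not given in the sources used here, nor whether each library is 1 animal, so p-values measure only the spread between these samples, which may be technical.

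After filtering, 9548 cells were kept, 2294 and 1577 in the Nanocapsule libraries and 3837 and 1840 in the Control libraries, and any 2 libraries shared 1 to 13 cell barcodes. The labels call all of them cancer cells. Most of them, 6653, expressed a set of 9 melanocytic markers that was fixed for naming, at 13555 and 13293 UMIs per 1000000 (CPM) in Nanocapsule tumour-like cells and 14408 and 12928 CPM in Control tumour-like cells, with no marker at 0. They are called tumour-like here, and 496 cells are called macrophage-like, 162 T-like, 157 B-like and 54 NK-like. Names went to whole clusters. The non-tumour names needed markers at a median log2 of at least 3 over all other clusters, with further checks. Tumour-like clusters were those left without a name that were not shallow. Their markers had a median log2 of at least 2 over the named classes. The median tumour-like cell had 61445 and 88598 UMIs in the Nanocapsule libraries, against 38438 and 81944 UMIs in the Control libraries, so depth differed more with the replicate number than with the treatment.

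Replication-dependent histone mRNAs are made when DNA is copied. They normally end in a short stem-loop in place of a poly(A) tail, bound by the stem-loop binding protein, and are degraded when replication stops. Some of these genes can also give longer, polyadenylated mRNAs that are stable outside S phase, and the libraries used here capture poly(A) RNA, per the labels' protocols. All values below are therefore 3-prime tag counts of poly(A)-primed RNA, not divided by transcript length. Many of these genes are near-identical copies, and the split of reads between copies is uncertain. Hist1h1e and Hist1h2be also overlap by 496 bases on the same strand.

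The stem-loop was found in 38 of the 48 members, searched as its consensus (a stem of 6 base pairs that opens with GG and closes with CC, around a loop of 4 bases) on the transcript strand, and in 136 of 21901 protein-coding genes (0.621%) of the GENCODE M21 transcripts (GRCm38). In 21 members its 16 bases were the same. The sites of 8 members are shown with 5 bases before and 9 after, the stem-loop in capitals, because these genes differ widely in how much mRNA remained outside S phase.
Hist1h2ae: acaaaGGCTCTTTTCAGAGCCattcactta
Hist1h1e: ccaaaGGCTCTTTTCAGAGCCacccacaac
Hist1h1d: caaacGGCTCTTTTCAGAGCCacccacaac
Hist1h1c: caaaaGGCTCTTTTCAGAGCCaccactccc
Hist1h3d: ccaaaGGCTCTTTTCAGAGCCacccccgtt
Hist3h2a: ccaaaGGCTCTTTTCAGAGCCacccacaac
Hist1h3e: aaaacGGCTCTTTTAAGAGCCacctccatt
Hist1h4i: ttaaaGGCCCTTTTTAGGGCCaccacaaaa
These sites are identical in their stem-loop for 6 of the 8, although Hist1h2ae was lower in G1 than in S cells and Hist3h2a was higher. The annotated transcripts run on for 151 bases after the stem-loop in Hist1h2ae, 1153 in Hist1h1e, 840 in Hist1h1c and 1643 in Hist3h2a. They run on for 4884 bases in Hist1h1d, 752 in Hist1h3d, 369 in Hist1h3e and 330 in Hist1h4i. Hist1h1d, with the longest run of these 8, was lower in G1 than in S cells. The 21 members whose transcript runs at least 100 bases past the stem-loop held 83.2% of all member UMIs in tumour-like cells. The 17 that end within 100 bases of it held 11.4%. Hist1h2bc and Hist2h2be, whose long transcripts (1156 and 2620 bases) hold no stem-loop of this form, held 2.66%. The 8 members with a short transcript and no such stem-loop held 2.81%.

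In tumour-like cells the most abundant member was Hist1h1e, a linker histone, at 156 and 174 CPM in the Nanocapsule libraries and 134 and 155 CPM in the Control libraries. Hist1h2ae, an H2A gene, followed at 110 and 161 CPM in the Nanocapsule libraries and 96.1 and 169.5 CPM in the Control libraries. The linker genes Hist1h1d and Hist1h1c came next, at 40.0 and 33.7 CPM over all tumour-like cells, and then Hist1h3e (H3) at 25.3 CPM and Hist1h4d (H4) at 21.6 CPM. Below them stood Hist1h2ab at 19.02 CPM, Hist2h2ac at 18.9 CPM, Hist4h4 at 12.7 CPM and Hist1h2bc at 12.4 CPM. The other linker genes were far lower, with Hist1h1t, the testis form, at 2.16 CPM, Hist1h1a at 0.35 CPM and Hist1h1b at 0.021 CPM.

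Cell-cycle states were set from published S phase and G2/M gene lists that hold no member, after each cell was thinned to 5000 UMIs. Of 6581 tumour-like cells deep enough, 661 (10.0%) lay close to the limit that separates cycling cells from G1, so the states are ranges of a score and not types. Cells in S made up 20.3% and 23.1% of Nanocapsule tumour-like cells and 20.01% and 24.06% of Control tumour-like cells. The shares differed by -0.30 percentage points (21.7 ± 2.0% against 22.04 ± 2.86%, SD, n = 2 each; two-sided exact permutation p = 1.00, and the smallest p that 2 against 2 libraries can give is 0.333).

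Histone mRNA was highest in S, somewhat lower in G2M and low in G1. All members together reached 771 and 998 CPM in S cells of the Nanocapsule libraries and 717 and 927 CPM in S cells of the Control libraries. In G1 cells they were at 181 and 192 CPM in the Nanocapsule libraries and 157 and 155 CPM in the Control libraries, so S cells were above G1 cells in every library. In G2M cells they were at 710 and 840 CPM in the Nanocapsule libraries and 600.3 and 778 CPM in the Control libraries, below S cells of the same library in all 4. In a fit of 12 sums (3 states of each library, with the library as a term), edgeR's quasi-likelihood test called 34 of 38 tested members higher in S than in G1 and 3 lower at an adjusted p under 0.05. Of all 14420 genes tested, 62.9% were called, 31% higher and 31.9% lower in S, so a call in this contrast is common. The median log2 change was 2.08 over the tested members and -0.02 over all genes. Members tested in this contrast were those that passed a filter on low counts, and 10 of the 48 did not. The filter's level was 0.317 CPM, and 7 of the 38 were under it in every G1 library, so that a rise of these had to appear. Likewise 1 of the 38, Hist1h3d, was under it in every S library, so that its fall had to appear. The median of 2.08 includes the 7 and Hist1h3d, so part of it follows from the filter. Of the 25 members over that level in every library in both S and G1, 23 were called higher and 1 lower.

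H2A and linker genes were among those with the largest rises in S. Hist1h2ae was at 181 and 268 CPM in S cells of the Nanocapsule libraries and 174 and 270 CPM in S cells of the Control libraries. In G1 cells it was at 14.3 and 14.7 CPM in the Nanocapsule libraries and 11.1 and 12.6 CPM in the Control libraries. Its log2 change was 4.04 ± 0.11 (SE, adjusted p = 7.43e-09, edgeR). Hist1h1d rose by a log2 of 3.92 ± 0.07, and Hist1h2ab by 4.01 ± 0.10 (SE). Among the rarer genes, Hist1h3g rose by a log2 of 3.15. Hist1h1a, Hist1h2af, Hist1h1t, Hist1h2bk and Hist1h3a were under the filter's level in every G1 library and were tested only through cycling cells. Their calls follow from the filter and no fold is given. Hist1h1a and Hist1h2bk had only 2 and 3 UMIs in G1 cells. Among the genes outside the large Hist1h cluster, the log2 rise was 3.34 for Hist2h2bb, 2.41 for Hist2h2ac, 2.30 for Hist4h4, 2.11 for Hist2h4, 1.86 for Hist2h2aa1 and 1.46 for Hist2h2ab. Hist2h3b was also under the filter's level in every G1 library, so no fold is given for it. The 9 H4 genes tested all rose, by log2 values of 0.92 to 2.30, of which Hist1h4b was under the filter's level in every G1 library. The 5 linker genes tested were also called higher. The log2 rise was 0.32 for Hist1h1c, 2.31 for Hist1h1e and 3.92 for Hist1h1d, while the calls of Hist1h1t and Hist1h1a follow from the filter.

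**Figure D1:**
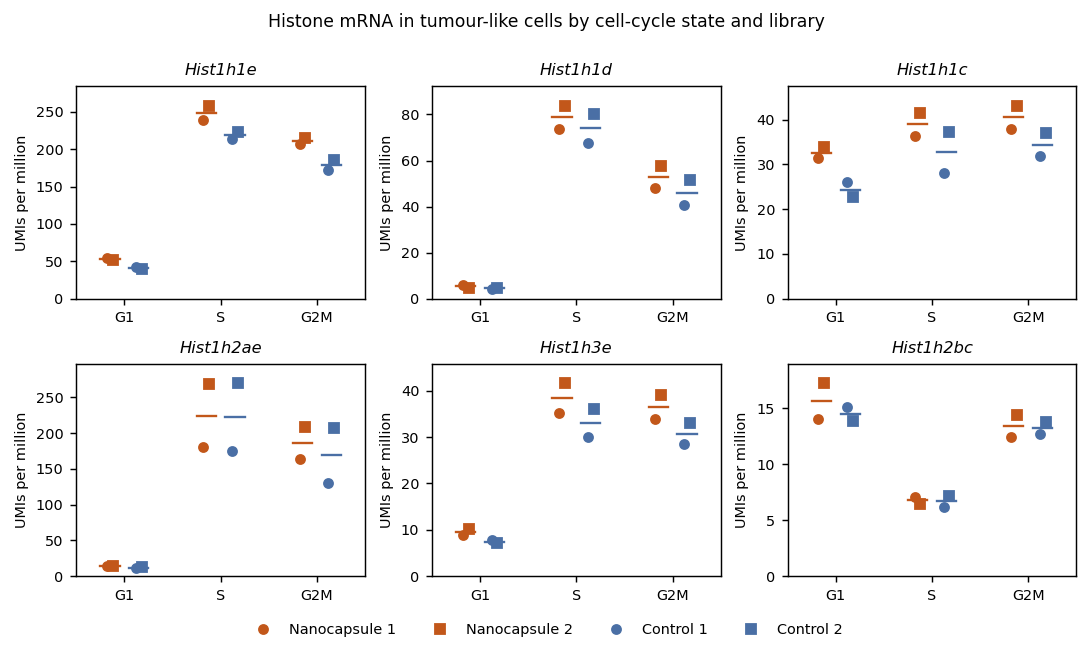
CPM of 6 histone genes in tumour-like cells, by cell-cycle state (G1, S, G2M) and library, with nanocapsule libraries left of control libraries in each state and short lines for the mean of 2 libraries. Hist1h1e, Hist1h1d, Hist1h2ae and Hist1h3e were low in G1 and high in S and G2M in every library, Hist1h1c changed little (log2 0.32 from S over G1), and Hist1h2bc was lowest in S.

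The calls in G2M were similar in number. Of 38 members tested, 34 were called higher in G2M than in G1 and 2 lower, where 60.7% of all genes were called, 30.6% higher and 30.1% lower. Again 7 of the 38 were under the filter's level in every G1 library, so that their rise had to appear. Of the 26 members over that level in every library in both states, 23 were called higher and 2 lower. Hist1h1d rose by a log2 of 3.31, Hist1h2ab by 3.83, Hist1h2ae by 3.74, Hist2h2bb by 3.35 and Hist1h1e by 2.07. Hist1h2af, Hist1h1a and Hist1h1t were among those under the filter's level in every G1 library, so no fold is given for them. Hist3h2a was lower by a log2 of -0.78 (adjusted p = 0.00142, edgeR). Hist1h2bc was lower by -0.15 (adjusted p = 0.0483, edgeR), and DESeq2 called 1 member lower in place of 2.

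A few members were as high or higher outside S. Hist3h2a, an H2A gene of the small Hist3h cluster, was at 1.95 and 1.48 CPM in G1 cells of the Nanocapsule libraries and 1.98 and 1.52 CPM in G1 cells of the Control libraries. In S cells it was at 0.73 and 1.04 CPM in the Nanocapsule libraries and 0.30 and 0.68 CPM in the Control libraries, below G1 in all 4 libraries. Its log2 change from S over G1 was -1.38 ± 0.25 (SE, adjusted p = 3.66e-05, edgeR). Hist1h2bc, an H2B gene, fell in the same way, at 7.09 and 6.47 CPM in S cells of the Nanocapsule libraries and 6.19 and 7.18 CPM in S cells of the Control libraries. Its G1 level was 14.0 and 17.2 CPM in the Nanocapsule libraries and 15.1 and 13.8 CPM in the Control libraries, and its log2 change was -1.17 ± 0.08 (SE, adjusted p = 3.78e-12, edgeR). Hist1h3d, an H3 gene with only 198 UMIs in tumour-like cells, was called lower in S too. It was under the filter's level in every S library and was tested only through the other states. Its call therefore follows from the filter and no fold is given.

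Among the 36 members with at least 100 UMIs in tumour-like cells, the ratio of the G1 level to the S level had a median of 0.233. Only 4 exceeded 1: Hist1h3d at 3.42 (with under 0.317 CPM in S cells of every library), Hist3h2a at 2.69, Hist1h2bc at 2.25 and Hist2h2be at 1.14. For Hist1h2bc the ratio ranged from 1.92 to 2.66 over the libraries, and for Hist2h2be from 1.00 to 1.25. Hist1h1c followed at 0.81, between 0.61 and 0.93 over the libraries. At the other end stood Hist1h1a at 0.0185, from 2 UMIs in G1 cells and 72 in S cells (exact 95% interval 0.0022 to 0.0692, counting error only). Next were Hist1h2af at 0.034, Hist1h2ae at 0.059, Hist1h2ab at 0.060 and Hist1h1d at 0.065. By annotated 3-prime end, both members with a long transcript and no stem-loop were above 1. The 4 with a short transcript and no stem-loop spanned 0.0185 to 0.359 with a median of 0.064. The 19 members with an extended transcript spanned 0.059 to 3.42 with a median of 0.258. The 11 that end within 100 bases of the stem-loop spanned 0.060 to 0.372 with a median of 0.162, within the range of the extended ones.

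**Figure D2:**
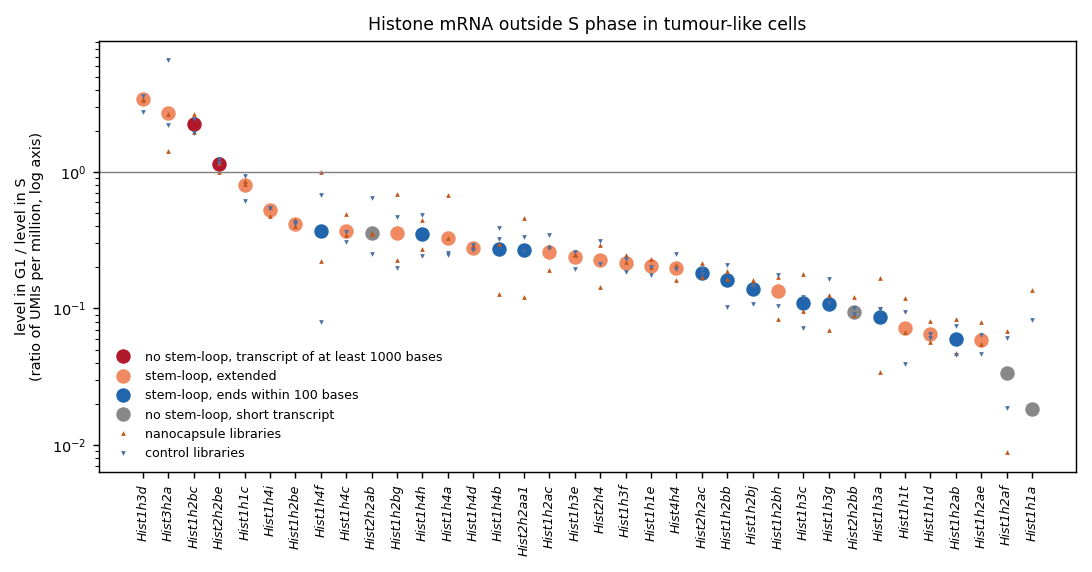
Ratio of the G1 level to the S level (CPM, log axis) in tumour-like cells for each of 36 histone genes with at least 100 UMIs, coloured by the annotated transcript end, with small triangles for single libraries (2 library ratios of 0, both of Hist1h1a, lie off the axis). Hist1h3d, Hist3h2a, Hist1h2bc and Hist2h2be lie above 1, and Hist1h1a is lowest at 0.0185.

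The linker mRNA of G1 cells had another makeup than that of S cells. Hist1h1c, a linker gene known for expression outside S phase, supplied 35.1% of linker UMIs in G1 cells and 10.2% in S cells. Its level was 36.4 and 41.4 CPM in S cells of the Nanocapsule libraries and 28.0 and 37.3 CPM in S cells of the Control libraries. In G1 cells it was at 31.4 and 33.8 CPM in the Nanocapsule libraries and 26.0 and 22.7 CPM in the Control libraries, and its rise in S was small (log2 0.32 ± 0.08, SE, adjusted p = 0.00637, edgeR). Hist1h1d supplied 21.8% of linker UMIs in S cells and 6.11% in G1 cells. Hist1h1e supplied 66.8% in S cells and 58.4% in G1 cells. As a whole the linker genes gave 45.6% and 38.9% of member UMIs in S cells of the Nanocapsule libraries, and 43.6% and 37.6% in S cells of the Control libraries. In G1 cells they gave 51.2% and 47.3% in the Nanocapsule libraries and 46.9% and 43.4% in the Control libraries, above the S share of the same library in all 4.

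**Figure D3:**
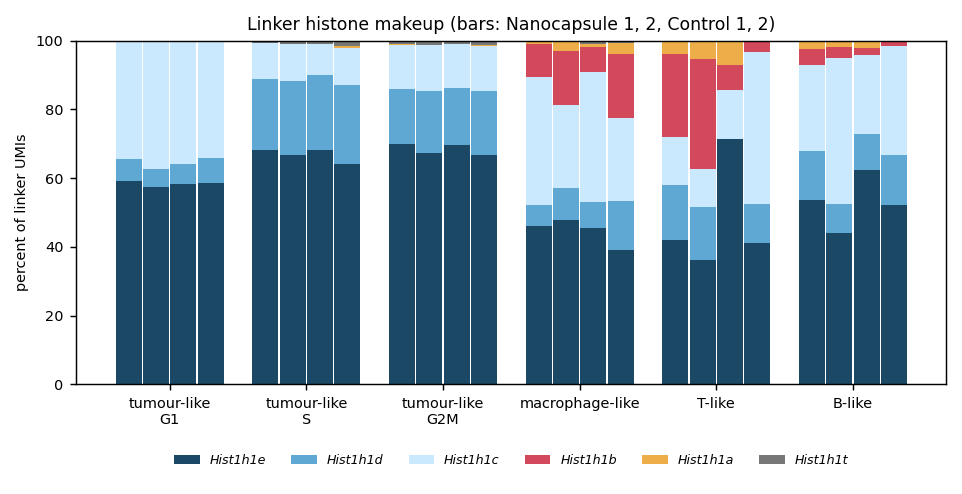
Share of linker UMIs from each of the 6 linker genes, in percent, by cell class and library, where each group of 4 bars is Nanocapsule 1, Nanocapsule 2, Control 1 and Control 2 from left to right. Hist1h1c is a larger share in G1 tumour-like cells than in S cells, and Hist1h1b (red) is visible in macrophage-like, T-like and B-like cells and not in tumour-like cells.

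No histone gene was called different between nanocapsule treated and control tumour-like cells, although a fit blocked on the replicate number called Hist1h1c. edgeR's quasi-likelihood test called 0 of 42 tested members at an adjusted p under 0.05, with 3 at an unadjusted p under 0.05, and DESeq2 called 0 with 1. Over all 16186 genes tested, 0% were called by edgeR, and 1190 had an unadjusted p under 0.05. The members leaned upward, with 32 of 42 higher in Nanocapsule cells and a median log2 change of 0.14, where the median over all genes was 0.00. Without the Nanocapsule 2 library the median became -0.05, with 19 of 43 higher, so the lean did not hold without that library. That fit sets Nanocapsule 1 against both Control libraries, and member levels also differed with the replicate number, whose part was not tested. All members together were at 520 and 673 CPM in Nanocapsule tumour-like cells and 463 and 644 CPM in Control tumour-like cells, and the groups overlap.

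The smallest p-values in tumour-like cells belonged to Hist1h1c, Hist2h2aa1 and Hist1h1e. Hist1h1c was at 35.2 and 39.8 CPM in Nanocapsule cells and 28.9 and 33.1 CPM in Control cells, with a log2 change of 0.28 ± 0.08 (SE, adjusted p = 0.676, edgeR). Blocking on the replicate number gave it an adjusted p of 0.0198 (edgeR), and nothing in the labels says that equal numbers mark paired libraries. Hist1h1e was both times above its Control values too, as given above, with a log2 change of 0.20 ± 0.08 (SE, adjusted p = 0.679, edgeR). Hist2h2aa1, an H2A gene at under 1 CPM, had a log2 change of 0.83 ± 0.33 (SE, adjusted p = 0.677, edgeR). For 7 of the 42 tested members both Nanocapsule libraries lay above both Control libraries, as did 18.6% of all genes tested, and for 0 both lay below, as did 16.7% of all genes. Of the other linker genes, Hist1h1d had a log2 change of 0.11 ± 0.15, Hist1h1t of -0.15 ± 0.30 and Hist1h1a of -0.997 ± 0.715 (SE), and none passed the test.

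Taken state by state no member was called either. For single states the count of all genes at an unadjusted p under 0.05 is not given here. The member counts at that level are therefore not read as a result about the members. The same holds for members called in fits without 1 library, blocked on the replicate number or without a filter on low counts. The share of all genes called in those fits is not given. In S cells 0 of 37 members were called by edgeR (0.0224% of all genes were), 4 had an unadjusted p under 0.05, and DESeq2 called 0 with 1. Single libraries moved this count. Without Control 1, Hist1h1a (log2 -2.01) and Hist1h1t (log2 -1.04) were called lower, and without Nanocapsule 1, Hist2h4 (log2 0.78) was called higher. Hist2h2aa1 was at 1.41 and 1.09 CPM in Nanocapsule S cells and 0.41 and 0.54 CPM in Control S cells (log2 1.40 ± 0.39, SE, adjusted p = 0.591, edgeR). Hist1h3c, an H3 gene, was at 4.12 and 6.76 CPM in Nanocapsule S cells and 7.35 and 8.69 CPM in Control S cells (log2 -0.55 ± 0.22, SE, adjusted p = 0.760, edgeR). Neither change passed the test, although the libraries of the groups did not overlap for either gene. In 5 of the 37 members both Nanocapsule libraries lay above both Control libraries, as in 17.1% of all genes tested, and in 1 both lay below, as in 18% of all genes.

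In G2M cells edgeR called 0 of 40 members (0.0138% of all genes), with 8 at an unadjusted p under 0.05, all of them higher in Nanocapsule cells, and DESeq2 called 0 with 4. Hist1h2bb, an H2B gene, was at 6.38 and 7.98 CPM in Nanocapsule G2M cells and 4.14 and 5.55 CPM in Control G2M cells (log2 0.58 ± 0.18, SE, adjusted p = 0.657, edgeR). Hist1h1e and Hist1h1c followed with log2 changes of 0.24 each. In 12 of the 40 both Nanocapsule libraries lay above both Control libraries, as in 19.8% of all genes tested, and in 0 both lay below, as in 17.1% of all genes.

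In G1 cells edgeR called 0 of 30 members (0% of all genes), with 4 at an unadjusted p under 0.05, and DESeq2 called 0 with 2. Hist1h1e was at 54.9 and 52.2 CPM in Nanocapsule G1 cells and 42.8 and 39.5 CPM in Control G1 cells (log2 0.40 ± 0.10, SE, adjusted p = 0.463, edgeR). Hist1h1c had a log2 change of 0.43 ± 0.12 (SE, adjusted p = 0.477, edgeR) and Hist1h2ae of 0.32 ± 0.11 (SE, adjusted p = 0.542, edgeR). Without the Control 1 library 2 members were called, Hist1h1c and Hist1h1e, both higher in Nanocapsule cells. Blocking on the replicate number also called Hist1h1e (adjusted p = 0.0347, edgeR), and both genes were called without a filter on low counts. The share of all genes called in these fits is not given, so the calls are not read as a result. In 11 of the 30 members both Nanocapsule libraries lay above both Control libraries, as in 15.5% of all genes tested, and in 1 both lay below, as in 21.8% of all genes. The change from S over G1 was compared between treatments in the state fit, where 0 of 38 members were called by edgeR (0% of all genes) with 1 at an unadjusted p under 0.05, and DESeq2 called 0 with 1. That one was Hist1h1e, whose S over G1 change was smaller in Nanocapsule cells by a log2 of -0.20 ± 0.08 (SE, adjusted p = 0.627, edgeR). Next by p-value came Hist3h2a, with a difference of 0.97 ± 0.49, and Hist1h2ac, with 0.44 ± 0.23 (log2, SE).

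**Figure D4:**
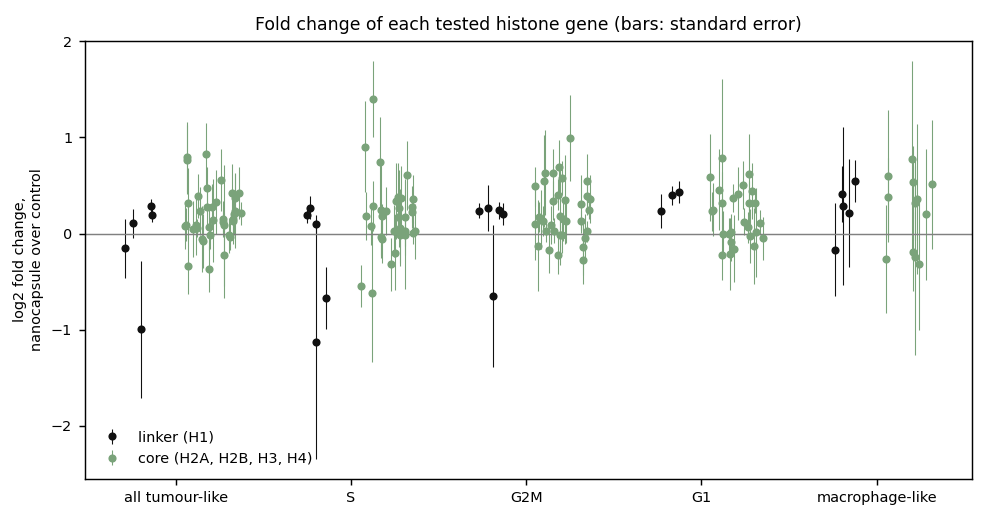
Log2 fold change, nanocapsule over control, of each tested histone gene in all tumour-like cells, in tumour-like cells in S, G2M and G1, and in macrophage-like cells, with linker genes in black, core genes in green and bars for the standard error of edgeR's fit. Points lie mostly above 0 (32 of 42 in all tumour-like cells), and no gene passed the test.

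The balance of linker to core histones did not separate the treatments. The log2 ratio of linker to core UMIs was -0.33 and -0.64 in Nanocapsule tumour-like cells and -0.43 and -0.77 in Control tumour-like cells, so replicate 1 was higher than replicate 2 in both groups. The difference was 0.11 (-0.49 ± 0.21 against -0.60 ± 0.24, SD, n = 2 each; two-sided exact permutation p = 0.667). Among core genes, 29 of 37 were higher in Nanocapsule tumour-like cells, with a median of 0.15, and among linker genes 3 of 5 with a median of 0.11 (log2).

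Macrophage-like cells numbered 90 and 116 in the Nanocapsule libraries and 141 and 149 in the Control libraries. edgeR called 0 of 17 members (0% of all genes) between treatments, with 1 at an unadjusted p under 0.05, and DESeq2 called 0 with 0. In 2 of the 17 both Nanocapsule libraries lay above both Control libraries, as in 10.4% of all genes tested, and in 0 both lay below, as in 16.2% of all genes. Over all 48 members 4 lay above and 7 below, but most of them were too rare here to test. These 2 counts have no share over all genes beside them, so no direction is read from them. All members together were at 372 and 626 CPM in Nanocapsule macrophage-like cells and 307 and 555 CPM in Control macrophage-like cells, so replicate 2 was higher in both groups. The S phase list moved in the same way, at 972 and 1819 CPM in the Nanocapsule libraries and 996 and 1818 CPM in the Control libraries, and its part in the histone level was not tested. Hist1h1e was at 104 and 111 CPM in Nanocapsule macrophage-like cells and 66.5 and 86.2 CPM in Control macrophage-like cells (log2 0.54 ± 0.22, SE, adjusted p = 1.00, edgeR). Hist1h3e and Hist1h1c came next, with log2 changes of 0.54 ± 0.37 and 0.41 ± 0.29 (SE). In B-like cells only 2 members passed the filter on low counts and 0 were called, where 0.153% of all genes were.

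One stretch of the large Hist1h cluster was nearly undetected in tumour-like cells and was measured in macrophage-like and T-like cells. The stretch runs over chr13:21715763-21837530 (GRCm38) and holds 18 Hist1h genes, 4 of them members: the linker gene Hist1h1b, the H2A genes Hist1h2ak and Hist1h2ap, and the H2B gene Hist1h2bm. In tumour-like cells its 18 genes together had 11 and 18 UMIs in the Nanocapsule libraries and 11 and 9 UMIs in the Control libraries, or 0.126 CPM over all (49 UMIs of 388058801). No cell had more than 1 of these UMIs. In T-like cells the same genes had 65 and 346 UMIs in the Nanocapsule libraries and 6 and 3 UMIs in the Control libraries, or 328 CPM over all. In macrophage-like cells they had 41 and 175 UMIs in the Nanocapsule libraries and 24 and 112 UMIs in the Control libraries, or 49.1 CPM over all. The other classes were divided too. The stretch had 15 UMIs (36.2 CPM) in B-like cells, 5 UMIs (19.3 CPM) in NK-like cells, and 135 UMIs (104 CPM) in the unnamed cluster 20. It had 17 UMIs (17.7 CPM) in fibroblast-like cells, with 0 in the 26 such cells of Control 1. It had 0 UMIs in the 29 neutrophil-like cells, which had 76600 UMIs in all. In the unnamed clusters 10, 11, 17 and 18, with 917, 544, 283 and 49 cells, it had 1, 0, 1 and 0 UMIs. The melanocytic markers were higher in these clusters than in the named non-tumour classes together, by a median log2 of 0.72, 1.1, 2.55 and 1.46. In fibroblast-like cells they were higher by 1.31. Whether the near absence extends beyond tumour-like cells therefore cannot be told from these clusters or from the fibroblast-like cells.

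The other stretches of the cluster were measured in tumour-like, macrophage-like and T-like cells alike. The 5 genes at chr13:22035164-22043676 were at 20.6 CPM in tumour-like cells, 19.8 CPM in macrophage-like cells and 69.5 CPM in T-like cells. The 29 genes at chr13:23531050-23764406, which hold Hist1h1c, Hist1h1d, Hist1h1e and Hist1h2ae, were at 485 CPM in tumour-like cells, 393 CPM in macrophage-like cells and 1056 CPM in T-like cells. Genes other than histones on both sides of the low stretch were measured in tumour-like cells, with Zkscan8 at 6.99 CPM and Zfp184 at 4.07 CPM.

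The contrast held within cycling cells. Tumour-like cells in S or G2M numbered 3955 and had 38 UMIs of the stretch, at 0.148 CPM (exact 95% Poisson interval 0.105 to 0.203, counting error only), whereas the 29-gene stretch reached 660 CPM in them. The 22 T-like cells in S or G2M had 408 UMIs of the low stretch at 838 CPM, in 17 of the cells, with at most 89 UMIs from 1 cell. The 73 macrophage-like cells in S or G2M had 309 UMIs at 118 CPM, in 32 of the cells. In G1 cells the stretch was at 12.9 CPM in T-like cells and 8.79 CPM in macrophage-like cells. Of the 19 genes under the minimum of 20 UMIs, 14 lie in this stretch.

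Hist1h1b, which encodes a main form of linker histone H1, held the most UMIs of the stretch in T-like and macrophage-like cells. It had 3 and 3 UMIs in Nanocapsule tumour-like cells and 2 and 0 UMIs in Control tumour-like cells. In macrophage-like cells it was at 21.7 and 36.0 CPM in the Nanocapsule libraries and 10.4 and 40.8 CPM in the Control libraries. Pooled over libraries this was 0.0206 CPM in tumour-like cells (exact 95% Poisson interval 0.0089 to 0.0406) and 29.3 CPM in macrophage-like cells (25.5 to 33.6), counting error only. In T-like cells it was at 153 and 353 CPM in the Nanocapsule libraries and 36.7 and 6.4 CPM in the Control libraries, and the 2 Control values rest on 2 UMIs each. Droplets with 10 to 100 UMIs, which hold mostly free RNA, had Hist1h1b at 5.01 CPM over all.

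**Figure D5:**
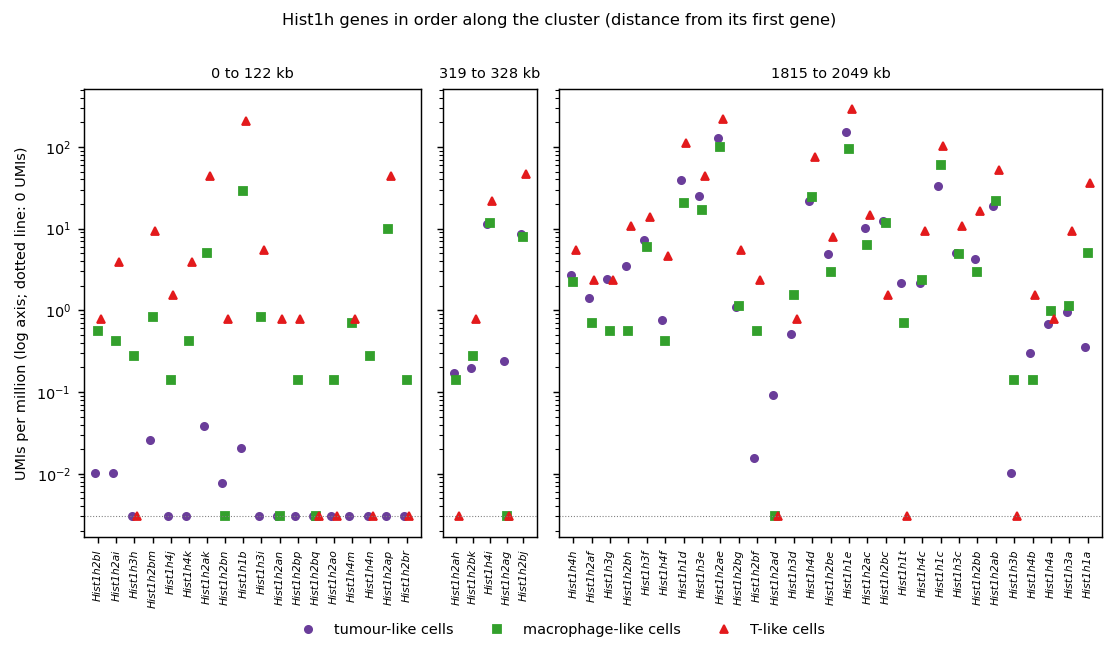
CPM (log axis) of each Hist1h gene in order along 3 stretches of the cluster, whose distance from the first gene is given above each panel in kilobases, in tumour-like, macrophage-like and T-like cells pooled over 4 libraries, with the dotted line for 0 UMIs. In the first stretch tumour-like cells lie at 0.04 CPM or less while Hist1h1b reaches 211 CPM in T-like cells, and in the other stretches the 3 classes lie close together for most genes.

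Members were called between tumour-like and macrophage-like cells no more often than genes at large, in a fit of 8 sums (2 classes of each library, with the library as a term). edgeR called 6 of 40 tested members higher in tumour-like cells, where 27.1% of all genes were called higher, and 9 lower, where 26.4% were. With a stricter cell minimum the counts were 3 higher and 5 lower, and the 8 members kept were Hist4h4, Hist1h2bh and Hist1h1e among the higher and Hist1h1b, Hist1h2ak, Hist1h2ap, Hist1h1a and Hist1h1c among the lower. Of the 9 lower, Hist1h1b, Hist1h2ak and Hist1h2ap were under the filter's level of 0.237 CPM in every tumour-like library and were tested only through macrophage-like cells, so their calls follow from the filter and no fold is given. The share of cycling cells differed too, at 56.9% and 64.8% of Nanocapsule tumour-like cells and 57.6% and 68.1% of Control tumour-like cells. It was 10.4% and 21.1% of Nanocapsule macrophage-like cells and 15.7% and 24.3% of Control macrophage-like cells, and its part in the contrast was not tested. The higher genes were Hist1h3g (log2 1.91), Hist2h2bb (1.20), Hist4h4 (0.94), Hist1h1d (0.73) and Hist1h1e (0.41), and Hist1h2bh, which had 1355 UMIs in tumour-like cells and 4 in macrophage-like cells, all 4 from Nanocapsule 2. The other lower ones were Hist1h1a (log2 -4.002), Hist1h3d (-1.90), Hist2h2aa1 (-1.60), Hist3h2a (-1.48), Hist1h1c (-1.19) and Hist1h4d (-0.43). Hist1h2ak had 15 UMIs in tumour-like cells and 36 in macrophage-like cells, and Hist1h2ap had 1 and 71, from far fewer UMIs in all in macrophage-like cells.

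Hist1h1c was at 35.2 and 39.8 CPM in Nanocapsule tumour-like cells and 28.9 and 33.1 CPM in Control tumour-like cells. In macrophage-like cells it was at 83.7 and 56.1 CPM in the Nanocapsule libraries and 55.4 and 53.4 CPM in the Control libraries, above tumour-like cells in all 4 libraries (log2 -1.19 ± 0.14, SE, adjusted p = 4.5e-07, edgeR). It supplied 14.7% of linker UMIs in tumour-like cells, 28.7% in macrophage-like cells and 30.4% in B-like cells. Hist1h1a lies at the far end of the 29-gene stretch and encodes another form of linker histone H1. It was at 0.35 CPM in tumour-like cells, 5.03 CPM in macrophage-like cells and 35.9 CPM in T-like cells.

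Of the members outside the Hist1h cluster, Hist2h3c1 and Hist2h3b were the rarest, at 0.10 and 0.22 CPM in tumour-like cells, and Hist3h2ba was at 0.26 CPM. The pair on chromosome 11, Hist3h2a and Hist3h2ba, was at 1.45 CPM in tumour-like cells, 3.35 CPM in macrophage-like cells and 38.6 CPM in B-like cells, the last from 16 UMIs. The 10 genes on chromosome 3 were at 42.9 CPM in tumour-like cells and 30.4 CPM in macrophage-like cells.

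The promoter letters of a linker gene in the low stretch were set beside those of one in the 29-gene stretch. The 250 bases before the RefSeq start (GRCm38.p6) of Hist1h1b, at chr13:21780626-21780875 on the minus strand, and of Hist1h1d, at chr13:23554782-23555031 on the plus strand, are shown because both are linker promoters, with gene levels of 0.021 CPM for Hist1h1b and 40.0 CPM for Hist1h1d in tumour-like cells. Capitals mark the letters of 3 elements on either strand. The H1 box of linker genes was searched as AAACACA. The general promoter element known as the CCAAT box was searched by those letters. The TATA box was searched as TATAAA.
Hist1h1b: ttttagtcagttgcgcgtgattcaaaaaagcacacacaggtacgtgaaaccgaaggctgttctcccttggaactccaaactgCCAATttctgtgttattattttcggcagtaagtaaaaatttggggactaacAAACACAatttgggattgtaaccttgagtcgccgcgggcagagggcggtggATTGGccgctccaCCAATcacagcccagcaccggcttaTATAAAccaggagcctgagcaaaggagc
Hist1h1d: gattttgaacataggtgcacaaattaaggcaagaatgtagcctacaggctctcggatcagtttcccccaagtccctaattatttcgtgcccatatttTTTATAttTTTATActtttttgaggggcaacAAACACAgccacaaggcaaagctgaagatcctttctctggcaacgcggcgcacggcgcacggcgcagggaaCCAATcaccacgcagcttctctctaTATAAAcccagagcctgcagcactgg
Both of these windows hold all 3 elements, whereas TATAAA was in only 4 of the 6 linker genes. Of the 43 members found in the RefSeq table, 88.4% held CCAAT in the 300-base window (250 bases before the start and 50 after), against 37.4% of all 32851 windows. TATAAA was in 53.5% of members and 13.6% of all windows. The H1 box was in 5 of the 6 linker genes and in 7.18% of all windows, and the octamer ATTTGCAT in 11 of the 43 members, all H2A or H2B genes, and in 1.74% of all windows. A match describes these letters only.

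Genes that make, process and deposit these histones were set beside the members. Of 26 genes for histone transcription and 3-prime processing, 22 were called higher in S than in G1 tumour-like cells and 1 lower. Their median log2 change was 0.44. Of all 14420 genes tested in this contrast, 31% were called higher and 31.9% lower. Slbp, the stem-loop binding protein, rose by a log2 of 1.69 and Casp8ap2, part of the histone locus body, by 1.55. Both are in the S phase list that set the states, and both are among the 26 counted. Npat, the activator of histone transcription, rose by 0.61 and Lsm11, part of the U7 snRNP that cuts histone pre-mRNA, by 0.74. Of 26 histone chaperones, 20 were called higher and 2 lower, with a median of 0.59, among them Asf1b at 3.53, Chaf1a at 2.59 and Hat1 at 1.63. Genes that set the states were not taken out of these counts. No rise apart from the states is read from them. Of 10 replication-independent variants, 6 were called higher and 1 lower, with a median of 0.38. Among them H2afx was at 1.20 and H2afz at 0.94, while H3f3b was lower by -0.08. Between treatments 0 genes of these lists were called in tumour-like cells, where 8 of 26, 8 of 26 and 4 of 11 were higher in Nanocapsule cells and 32 of 42 histone members were.

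Free RNA was rich in histone mRNA. In droplets with 10 to 100 UMIs the members were at 2379 and 3281 CPM in the Nanocapsule libraries and 2650 and 4174 CPM in the Control libraries. Each such droplet held 0.150 and 0.214 member UMIs in the Nanocapsule libraries and 0.159 and 0.291 in the Control libraries. Hist1h1e was at 590 and 647 CPM there in the Nanocapsule libraries and 699 and 979 CPM in the Control libraries, above its level in tumour-like cells of every library. B-like and NK-like cells have few UMIs, with medians of 2586 and 4337, and the part of free RNA in their Hist1h1e levels was not tested. Hist1h1b, from the low stretch, made up 0.48% of linker UMIs in these droplets and 28.0% in T-like cells.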

How the data were processed

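Single-cell 3-prime libraries were deposited as whole-number UMI counts per gene and barcode. Per the labels' protocols they used 10x Genomics 3-prime v2 chemistry. The submitters' processing notes name mm10 and Cell Ranger 2.1.1, whereas per the file headers the matrices come from Cell Ranger 4, so the version is uncertain. All barcodes were deposited (628752 to 688565 per library, with 98943390 to 140491491 UMIs in all). Barcodes with at least 1500 UMIs and 200 genes and at most 20% mitochondrial UMIs were kept.

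For clustering, the counts of each cell were scaled (not thinned) to a sum of 10000 and log-transformed. Cells were clustered without any Hist gene (scanpy, 2000 variable genes, 30 principal components, 15 neighbours, Leiden at resolution 1) and named from fixed marker lists. Scrublet marked 13 of 9548 barcodes (0.136%), so doublets were not removed. States came from scanpy's cell-cycle scores at 5000 UMIs per cell, where the S list has 42 and the G2/M list 52 measured genes.

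Counts were summed per library and class and tested across libraries with edgeR's quasi-likelihood test (TMM, filterByExpr, Benjamini-Hochberg over all genes, adjusted p under 0.05). The step was tested on simulated data. Alternatives were DESeq2, no filter, another cell minimum, other state rules, each library left out and the replicate number as a block. Shares and ratios were tested with exact permutation over libraries.

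The members and lists were chosen with earlier results of these data known. Named genes were every linker gene, the 10 members with most UMIs in tumour-like cells, up to 10 called members per direction and comparison (with none, the 3 smallest unadjusted p), the 5 highest and 5 lowest G1 to S ratios, and every Hist2h, Hist3h and Hist4h member. Genes with no member role and genes named as examples beyond this rule were chosen after their values were seen. Stem-loops came from GENCODE M21 transcripts, to which 32158 of 32285 genes matched by ID, and promoters from RefSeq. Intervals cover counting error only.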

Additional observations from a re-analysis of the deposited data

Results flagged for a closer look

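In 5 groups of cells that no test of the report covers, the lowest Nanocapsule library lay above the highest Control library in summed member level. In 3 others (fibroblast-like cells, neutrophil-like cells and the unnamed cluster 11) the order was the opposite, and in 3 (endothelial-like cells, the unnamed cluster 20 and droplets with 10 to 100 UMIs) the groups overlapped. In cluster 11 the members were at 464 and 546 CPM in the Nanocapsule libraries and 594 and 873 CPM in the Control libraries. No test was made between treatments in them, and with 2 libraries a group the order alone is weak.

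In T-like cells the members were at 1232 and 2283 CPM in the Nanocapsule libraries and 973 and 329 CPM in the Control libraries. These came from 37 and 49 Nanocapsule cells and 13 and 63 Control cells. Of the T-like cells deep enough for a state, 7 of 20 and 12 of 44 Nanocapsule cells and 3 of 3 and 0 of 22 Control cells were in S or G2M. The S phase list was at 2783 and 2774 CPM in the Nanocapsule libraries and 3029 and 1155 CPM in the Control libraries, and its part in the histone levels was not tested.

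In NK-like cells the members were at 691 and 640 CPM in the Nanocapsule libraries and 285 and 556 CPM in the Control libraries, from 7 to 17 cells a library. In the unnamed clusters the lowest Nanocapsule value was 1387 CPM against 1334 CPM for the highest Control value in cluster 10, 409 CPM against 339 CPM in cluster 17, and 957 CPM against 526 CPM in cluster 18.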

How the results depend on the processing

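Most alternatives left the counts of called members within 1.5 times of the values reported. Without a filter on low counts 2 members were called in G1 cells, and over the libraries left out in turn the count of called members was 0 to 2 in S cells and 0 to 2 in G1 cells (2 without the Control 1 library in each, both lower in Nanocapsule S cells and both higher in Nanocapsule G1 cells, and 1 higher in S cells without the Nanocapsule 1 library). With the replicate number as a block, 1 member was called in all tumour-like cells (Hist1h1c), 1 in G1 cells (Hist1h1e) and 0 in S cells, G2M cells and macrophage-like cells. The numbers are not known to pair the libraries: with 2 pairs, the difference of replicate 1 from replicate 2 correlated at 0.58 between the groups over 9853 genes, as a hint from the data and not the design. With a cell minimum an order of magnitude below the largest cells, 8 members differed between tumour-like and macrophage-like cells in place of 15. Over the libraries left out, the linker to core difference ran from -0.057 to 0.285 (log2) and the S share difference from -2.32 to 1.72 percentage points, so neither direction is stable. A lone library in a group was assumed to vary like the other group. Depth limits members under 1 CPM, and the T-like and NK-like values rest on few cells.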

Other observations

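At one depth of 5000 UMIs per cell, the mean number of member UMIs per tumour-like cell was 3.92 and 4.66 in S cells of the Nanocapsule libraries and 3.14 and 3.97 in S cells of the Control libraries. In G2M cells it was 3.36 and 3.88 in the Nanocapsule libraries and 2.87 and 3.38 in the Control libraries. In G1 cells it was 0.89 and 0.91 in the Nanocapsule libraries and 0.73 and 0.77 in the Control libraries. The groups overlapped in S and G2M and not in G1.

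By cell size the order of the treatments was not the same throughout. Among tumour-like cells with over 50000 UMIs the members were at 556 and 678 CPM in the Nanocapsule libraries and 698 and 659 CPM in the Control libraries. Among the few tumour-like cells with 1500 to 5000 UMIs they were at 1401 and 1583 CPM in 15 and 22 Nanocapsule cells, and at 448 and 300 CPM in 27 and 8 Control cells. Fibroblast-like cells had 298 and 80.2 CPM from 5 and 5 Nanocapsule cells, and 1340 and 519 CPM from 26 and 12 Control cells, where 14 of the 23 Control 1 cells with a state were in S or G2M.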
